A study of Rattus norvegicus with 12 samples.

Results

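The genes described here encode the nuclear-encoded subunits of respiratory complex III, complex IV and ATP synthase (complex V), together with cytochrome c. They were taken by gene name from the deposited count table, 40 of its 30560 rows, with every row of a repeated name kept. The rows carry 37 names, and 9 rows belong to complex III, 13 to complex IV, 17 to ATP synthase and 1 to cytochrome c. Cytochrome c (Cycs) is a carrier and Atp5if1 an inhibitor rather than a subunit, and 3 rows are second copies of a name, given here with their identifier. Further subunit genes of these complexes, such as Cox7a2, Cox8b and Atp5f1c, matched no row by name and are not analysed here.

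The libraries came from the inner red part of the gastrocnemius, an oxidative calf muscle, of wild-type male Wistar Kyoto rats aged 9 weeks. Whole muscle and mitochondria of the same 6 animals gave 6 libraries each. Immunoprecipitation from a fresh piece gave the mitochondria, which had purification steps with RNase A and proteinase K, whereas the whole muscle was frozen and its labels give no such treatment. Total RNA was depleted of ribosomal RNA in library preparation, from 50 ng for muscle and 10 ng for mitochondria. The study's stated subject is nuclear-encoded non-coding RNA in purified muscle mitochondria, and the mRNAs described here were counted in the same libraries. P-values below measure the spread between these samples.

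Electrons pass along the inner mitochondrial membrane from complex III to cytochrome c and on to complex IV, which reduces oxygen to water, and ATP synthase uses the resulting proton gradient to make ATP. The mitochondrial genome encodes a few core subunits of these enzymes. All genes described here lie in the nucleus, their mRNAs are translated on cytosolic ribosomes, and the proteins are imported. Red muscle, which relies on oxidative metabolism, is rich in them.

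Muscle libraries held 24309444 to 32055355 counts and mitochondria libraries 720111 to 1785865. Reads of the mitochondrial genome took 26.4% to 35.9% of counts in muscle and 12.9% to 51.5% in mitochondria. The summed level of 13 muscle fibre markers was 165956 to 229237 CPM (read counts scaled to the same total in each library) in muscle and 1428 to 3583 in mitochondria. Endothelial markers summed to 366 to 599 and 263 to 465 CPM, fibroblast markers to 1699 to 5354 and 226 to 338, smooth muscle and pericyte markers to 310.1 to 425 and 167 to 292, and macrophage and leukocyte markers to 27.1 to 49.8 and 185 to 321. Adipocyte markers summed to 0.0650 to 3.42 CPM in muscle and 47.5 to 87.8 in mitochondria, Schwann cell markers to 15.8 to 103.4 and 58.2 to 111, and Alas2, Hba-a1 and Hbb, of which 1 name was matched, to 2.99 to 5.92 and 8.81 to 18.1. No matched marker was at 0 in either group, and their part in the results below was not tested.

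Taken as a whole, the subunit mRNAs were abundant in muscle and scarce in the mitochondria libraries. The 40 genes together took 1.26% to 1.57% of nuclear counts in muscle and 0.0758% to 0.0847% in mitochondria. TMM scaling sets the factor between libraries from a trimmed, weighted mean of log ratios, and need not centre the median gene on no change. Unless another scaling is named, log2 fold changes below are TMM values. They are therefore not the ratios of the CPM printed beside them, which follow total counts. By edgeR (quasi-likelihood test after TMM scaling), 34 of the 39 genes with enough counts fell and 4 rose. Of those 4, 3 had no muscle count and entered the test only through the mitochondria libraries, so their calls restate that selection. Over all 24679 genes tested, 30.3% fell and 63.0% rose, so the share of falls among the subunits was above the background and the share of rises below it. Their median log2 fold change, mitochondria over muscle, was -5.77, against 2.51 over all genes tested. That background holds 12668 other nuclear genes below 1 CPM in muscle, with a median of 7.06. Genes with few or no muscle counts enter the test only through the mitochondria libraries, so the background in part restates that selection. The all-gene median was 1.21 without whole muscle replicate 1 and 3.56 with no filter. In such bulk data, fewer cells or organelles holding an mRNA and less of it in each cannot be told apart, nor can a loss of these mRNAs and a gain of other RNAs in the same library. Depth and RNA input also differ between the groups and cannot be told apart from them. With nuclear counts thinned to 573903 in every library, the subunits' median was -4.87 over 35 genes tested, against 1.15 over all 14946 genes tested. These are other sets of genes than in the main fit: Cox7b2, Cox8c and the copies of Atp5mc1 and Atp5mk were no longer tested.

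The count of falling genes was similar under other scalings. Scaled by total counts alone, the median of all genes moves by 2.10 to 4.61, and 33 of the subunit genes fell (background 9.03%) and 6 rose (background 84.3%), with a median of -3.71. With the mitochondrial genome counts of each library as its size, 32 fell (background 4.40%) and 5 rose (background 80.7%), with a median of -3.39 against 4.81 over all genes. Under each of these scalings, 36 of 39 genes lay below the median of all genes tested. That median also depends on which genes pass the filter. By CPM, 32 genes were lower in every mitochondria library than in any muscle library (6.77% of all genes tested) and 5 were higher in every one (79.5%). Of those 5, Cox7b2, Cox8c and the copy of Atp5mc1 had no muscle count and passed the filter only through the mitochondria libraries. Their separation restates that selection, and the background holds genes selected in the same way.

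**Figure D1:**
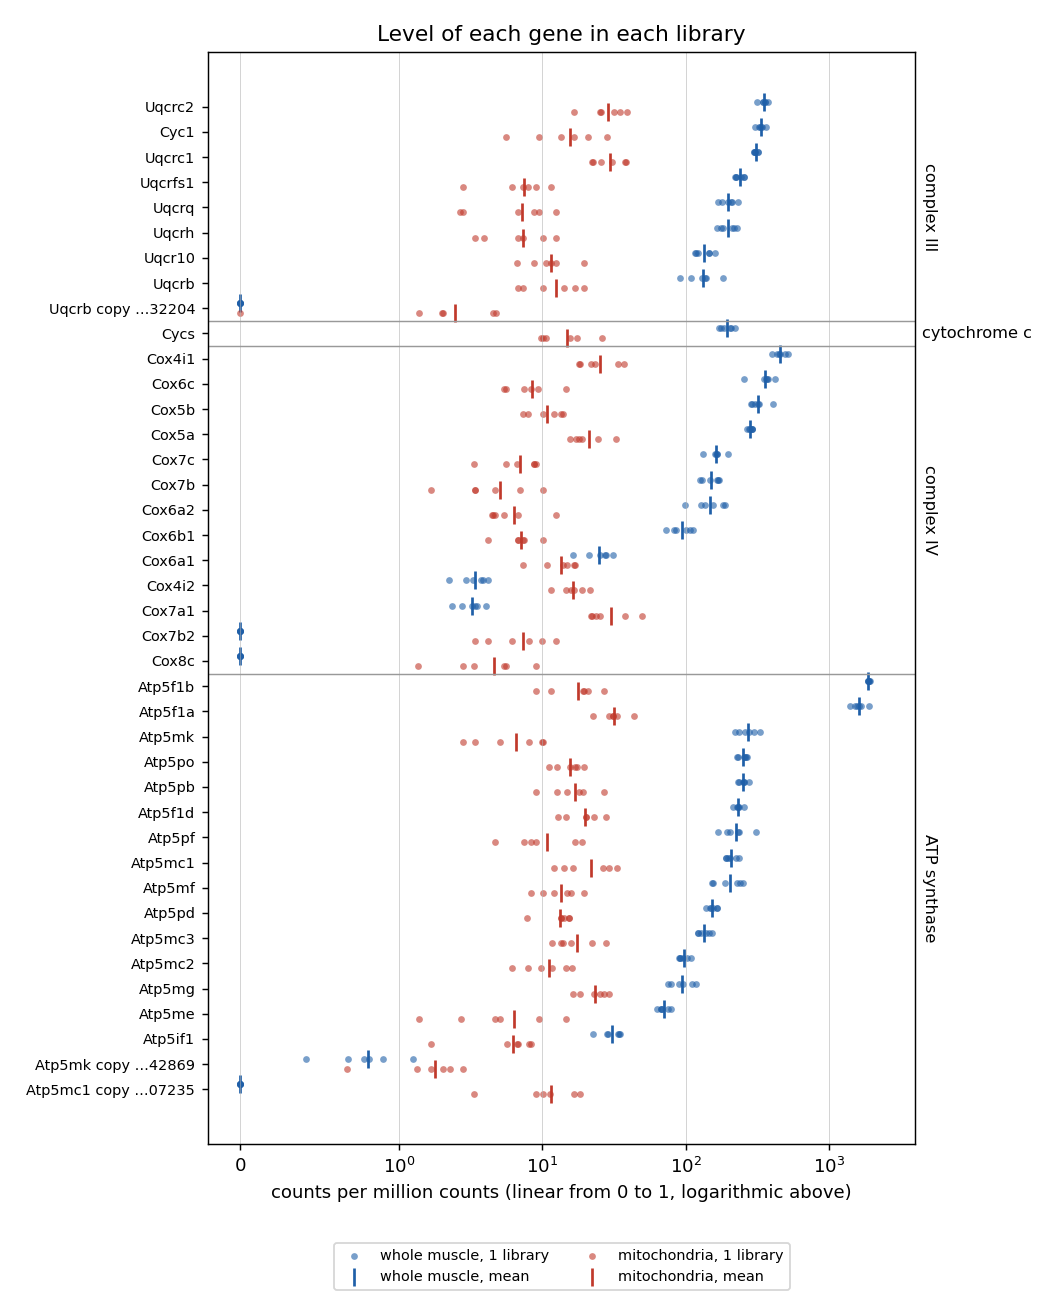
CPM of each gene in each library (points) with the group mean (vertical tick), on an axis that is linear from 0 to 1 and logarithmic above, for 6 whole muscle (blue) and 6 mitochondria (red) libraries. Muscle means run from 0 to 1884 and mitochondria means from 1.79 to 31.8, and Cox4i2, Cox7a1, Cox7b2, Cox8c and the copy of Atp5mc1 lie to the right of their muscle values in every library. Of these, Cox7b2, Cox8c and the copy of Atp5mc1 had no muscle count, so any mitochondria count places them there.

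The genes had a wide range of levels in muscle and a narrow one in mitochondria. Among the 33 genes with a mean of at least 10 CPM in muscle, the group means ran from 24.8 to 1884 CPM there, a 76.0-fold range. The same genes had means of 5.03 to 31.8 CPM in mitochondria, a 6.33-fold range. CPM is not divided by transcript length, so these ranges describe reads per gene and not molecules. Across these 33 genes the mean levels of both groups had a Spearman correlation of 0.49, and across 24654 nuclear genes tested it was 0.57; both are descriptions over genes counted in the same libraries.

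The changes were set beside those of other nuclear genes in the same wide range of muscle level. Among genes with a muscle mean of 100 to 1000 CPM, the median log2 fold change was -6.13 for 25 subunit genes and -4.42 for 633 other nuclear genes, whose middle 50% lay between -5.23 and -3.50. Between 10 and 100 CPM the medians were -4.82 for 6 subunit genes and -1.69 for 5837 others. Atp5mc2, Atp5mg, Cox6b1 and Atp5me lay high in this range, at 96.7, 94.8, 93.7 and 70.3 CPM. Atp5if1 and Cox6a1 were at 30.5 and 24.8. In the other ranges the medians lay closer together. Above 1000 CPM, Atp5f1a and Atp5f1b had a median of -8.33, inside the middle 50% of 61 other genes (-8.59 to -6.57, median -7.62). From 1 to 10 CPM the medians were 0.62 for 2 subunit genes and 0.44 for 5416 others, and below 1 CPM 7.47 for 4 and 7.06 for 12668, fitted values that depend on the prior count where a gene has no muscle count. The medians of other genes fall with muscle level, so level is not matched within a range, and its part in these gaps was not tested. These are descriptions, and the difference between the groups of genes was not tested.

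Complex III joins 2 catalytic nuclear subunits, the cytochrome c1 gene Cyc1 and the Rieske iron-sulphur protein gene Uqcrfs1, to a pair of core proteins and several small subunits. All 8 of its genes that were tested fell, with log2 fold changes from -6.99 to -5.50 (30.3% of all genes tested fell). Cyc1 had 306 to 362 CPM in muscle (median 333) and 5.55 to 28.1 in mitochondria (median 15.0), with a log2 fold change of -6.48 ± 0.17 (SE, edgeR adjusted p = 2.14e-24). Uqcrfs1 had 222 to 257 CPM in muscle (median 235) and 2.78 to 11.5 in mitochondria (median 7.60), a change of -6.98 ± 0.17 (edgeR adjusted p = 3.20e-25). The groups were far apart for both genes, and the lowest mitochondria value of both came from replicate 1.

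The core proteins had smaller changes than the catalytic pair. Uqcrc1 went from 299 to 322 CPM in muscle (median 304) to 22.4 to 38.3 in mitochondria (median 28.2) and changed by -5.50 ± 0.13 (edgeR adjusted p = 2.47e-25). Uqcrc2 went from 314 to 378 CPM (median 352) to 16.6 to 38.9 (median 28.7), with a change of -5.74 ± 0.14. Whether the core and catalytic genes differed in their change was not tested.

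Of the small subunits, Uqcrq, which helps to bind ubiquinone, had 168 to 233 CPM in muscle (median 202) and 2.66 to 12.5 in mitochondria (median 7.76). Uqcrh, the hinge protein next to cytochrome c1, had 167 to 229 CPM (median 196) and 3.38 to 12.5 (median 7.05). Their log2 fold changes were -6.99 ± 0.18 and -6.86 ± 0.17, and neither overlapped between groups. Uqcrb, another small subunit, has a second row in the table. The row with most counts had 91.2 to 181 CPM in muscle (median 133) and 6.72 to 19.4 in mitochondria (median 12.2) and fell by 5.60 on the log2 scale. The copy ENSRNOG00000032204 had no count in muscle and 18 counts in mitochondria, too few for the test. Counts of near-identical copies can be split between them in mapping, so values of copies are uncertain, and the strand setting of the counting was not given in the sources used here.

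Cytochrome c, the small haem protein that shuttles electrons to complex IV, also fell. Cycs had 170 to 222 CPM in muscle (median 195) and 9.72 to 25.9 in mitochondria (median 13.2), and changed by -5.79 ± 0.15 (edgeR adjusted p = 1.52e-24).

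In complex IV, 9 of 13 genes fell, 3 rose and 1 did not pass the test. The shares over all genes tested were 30.3% for falls and 63.0% for rises. The members that did not fall were isoforms with few or no counts in muscle. Cox4i1, the common form of the largest nuclear subunit, went from 400 to 516 CPM in muscle (median 453) to 18.1 to 37.3 in mitochondria (median 22.6), a change of -6.24 ± 0.18 (edgeR adjusted p = 8.77e-24). Cox6c, a small membrane subunit, fell furthest of the complex IV genes, from 255 to 421 CPM (median 368) to 5.39 to 14.6 (median 7.90), a change of -7.54 ± 0.18 (edgeR adjusted p = 1.62e-25). Cox5b, Cox5a, Cox7b, Cox7c and Cox6b1, other structural subunits, had log2 fold changes from -7.17 (Cox7b) to -5.77 (Cox6b1), and none of these 5 overlapped between groups.

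Cox4i2, the isoform of Cox4i1 best known from lung and from cells at low oxygen, had 2.24 to 4.15 CPM in muscle (median 3.53) and 11.5 to 21.4 in mitochondria (median 16.3). Its groups did not overlap by CPM, yet its change under TMM was 0.19 ± 0.19 and did not pass (edgeR adjusted p = 0.340). It passed with total counts, at 2.27 (edgeR adjusted p = 3.37e-13), and with mitochondrial genome counts as library size, at 2.57 (edgeR adjusted p = 4.55e-05). Both values remain below the medians of all genes under those scalings, 4.61 and 4.81.

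Cox7a1 is known as the subunit VIIa isoform of heart and skeletal muscle. The counted gene had only 2.34 to 4.06 CPM in muscle (median 3.31) and 21.8 to 49.5 in mitochondria (median 24.4). It rose by 1.05 ± 0.17 under TMM (edgeR adjusted p = 1.38e-06) and did not pass against a fold of at least 2 (edgeR adjusted p = 0.217). With total counts the change was 3.17. Both changes are below the median of all genes under the same scaling. Under TMM, however, Cox7a1 is above the median of 0.44 for the 5416 other nuclear genes of 1 to 10 CPM in muscle. It lies inside their middle 50% (-0.35 to 1.33). Whether this row counts the transcripts of the muscle isoform could not be settled from the files, so the rise is that of the row as named, which may be misannotated.

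Cox7b2 and Cox8c, isoforms known from testis, had no count in any muscle library. Cox7b2 had 3.39 to 12.4 CPM in mitochondria (median 7.12, 57 counts in all) and Cox8c had 1.36 to 9.01 (median 4.36, 32 counts). Against a floor of 3 counts over the muscle group, Cox7b2 was 413-fold higher by pooled CPM and Cox8c 232-fold. These ratios use total counts and leave out the counting error of the mitochondria sums, so they are not strict lower bounds. The 12668 other nuclear genes below 1 CPM in muscle had a median mitochondria level of 11.9 CPM, above that of both genes. Both entered the test only through the mitochondria libraries, so no p is given. With 43.2 to 73.9 and 21.9 to 45.2 as exact 95% Poisson intervals for these sums, which cover counting error only, their mitochondria level is known roughly. The ubiquitous Cox7b had 34 counts in the mitochondria libraries and 25766 in muscle.

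**Figure D2:**
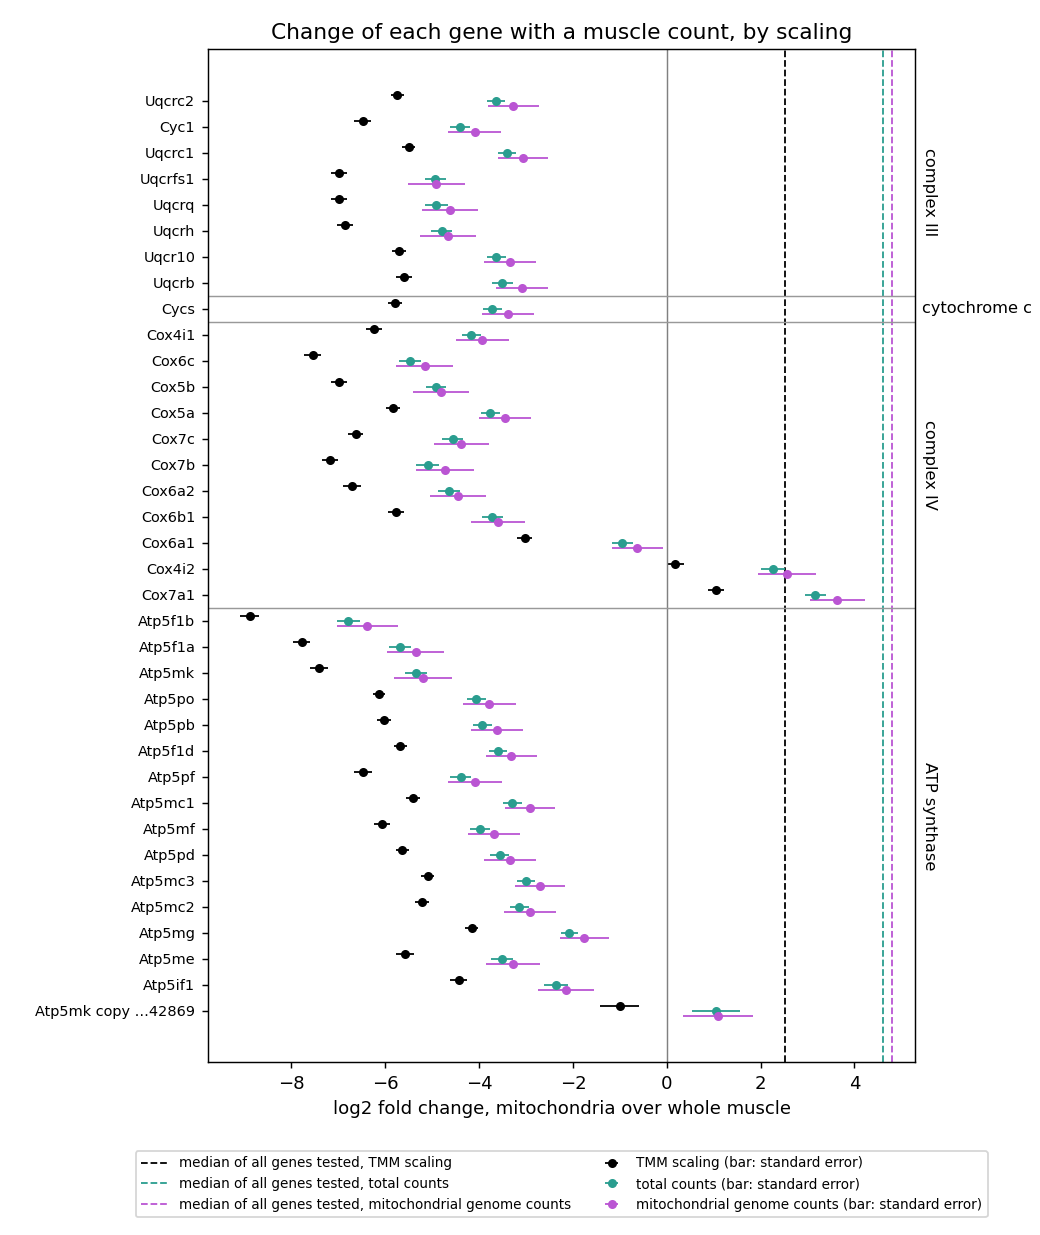
Log2 fold change, mitochondria over whole muscle, with its standard error for each tested gene that had a muscle count, under TMM scaling (black), total counts (green) and mitochondrial genome counts as library size (purple); dashed lines mark the median of all genes tested under each scaling. The points shift together between scalings, and Cox6a1, Cox4i2, Cox7a1 and the copy of Atp5mk stand to the right of the other genes.

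The isoform pairs of complex IV had very different proportions in the groups. Cox6a2 is the heart and muscle form of subunit VIa and Cox6a1 the form of most other tissues. Cox6a2 had 99.3 to 188 CPM in muscle (median 147) and 4.48 to 12.5 in mitochondria (median 5.04), and Cox6a1 16.3 to 30.9 (median 26.4) and 7.28 to 16.9 (median 14.4). Both fell, with log2 fold changes of -6.70 for Cox6a2 and -3.03 for Cox6a1, and Cox6a1 was the only gene of at least 10 CPM in muscle whose groups overlapped. With mitochondrial genome counts as library size Cox6a1 no longer passed, at -0.62 (edgeR adjusted p = 0.277). Cox6a2 made up 85.6% ± 1.26 of the counts of the pair in muscle (SD, n = 6) and 31.9% ± 8.08 in mitochondria (SD, n = 6). Its lowest muscle share was 83.4% and its highest mitochondria share 42.9%.

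For subunit IV the share of Cox4i2 was 0.739% ± 0.168 in muscle and 40.3% ± 9.52 in mitochondria (SD of 6 libraries). No library of either group came near the other, with at most 0.903% in muscle and at least 23.6% in mitochondria. A share within a pair does not depend on library scaling, but it is not adjusted for transcript length and, in mitochondria, rests on 25 to 72 counts per library for subunit IV. The genes of each complex IV pair also had unequal muscle levels. Median log2 fold changes of other nuclear genes were 0.44 at 1 to 10 CPM in muscle, -1.69 at 10 to 100 and -4.42 at 100 to 1000. Whether the shares moved beyond this was not tested.

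**Figure D3:**
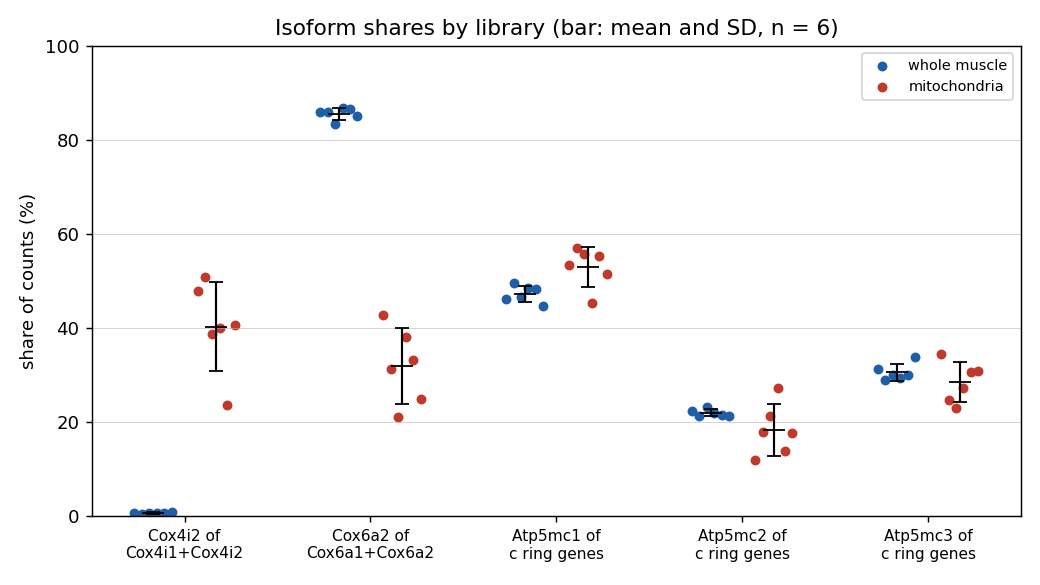
Share of counts (%) held by 1 isoform among the genes of its family in each library, with mean and SD as black bars (6 whole muscle libraries in blue, 6 mitochondria libraries in red). The complex IV isoforms separate the groups, and the c ring genes have similar shares in both.

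ATP synthase has a catalytic F1 head, a membrane ring of c subunits and a stalk that joins them. Of its 17 genes 16 fell and 1 rose under TMM, where 30.3% of all genes tested fell and 63.0% rose. The gene that rose was the copy of Atp5mc1, which had no muscle count. Its alpha and beta subunit genes had the largest falls of the genes described. Atp5f1b, the catalytic beta subunit, was very even in muscle, with 1859 to 1922 CPM (median 1883, coefficient of variation 1.34%), and had 8.96 to 27.0 in mitochondria (median 19.4). Its change was -8.89 ± 0.20 under TMM (edgeR adjusted p = 7.26e-26) and -6.78 with total counts, and by pooled CPM it was 114-fold lower. Atp5f1a, the alpha subunit, had 1401 to 1913 CPM (median 1590) and 22.4 to 43.9 (median 31.1), with a change of -7.78 ± 0.19 (edgeR adjusted p = 2.54e-25). The delta subunit Atp5f1d fell by 5.68.

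The c ring turns as protons cross the membrane, and Atp5mc1, Atp5mc2 and Atp5mc3 encode the same mature c subunit behind different import sequences. The main Atp5mc1 row had 191 to 236 CPM in muscle (median 201) and 12.0 to 33.0 in mitochondria (median 21.3). Atp5mc2 had 90.4 to 110 CPM (median 93.4) and 6.10 to 16.2 (median 10.7), and Atp5mc3 had 121 to 153 (median 133) and 11.8 to 27.8 (median 14.9). The 3 genes fell by similar amounts, with log2 fold changes of -5.40, -5.21 and -5.09.

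Unlike the complex IV pairs, the c ring genes held similar shares in both groups. Atp5mc1 made up 47.3% ± 1.78 of the c ring counts in muscle and 53.1% ± 4.24 in mitochondria, Atp5mc2 22.0% ± 0.737 and 18.4% ± 5.45, and Atp5mc3 30.7% ± 1.78 and 28.5% ± 4.30 (SD of 6 libraries). The ranges of each gene overlapped between groups. In muscle, the levels of the c ring genes lay closer together in ratio than those of either complex IV pair. The part of this in the contrast was not tested. The Atp5mc1 share includes a copy, ENSRNOG00000007235, that had no count in muscle and 85 in mitochondria, 3.36 to 18.2 CPM per library (median 10.7). This copy was 616-fold higher by pooled CPM against the floor of 3 counts, again not a strict lower bound. No p is given, since it too entered the test only through the mitochondria libraries. Without this copy the mitochondria share of Atp5mc1 was 42.5%. Other nuclear genes below 1 CPM in muscle had a median of 11.9 CPM in mitochondria.

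All 4 genes of the peripheral stalk, which keeps the head from turning with the ring, fell, with log2 fold changes from -6.47 to -5.64. Atp5po, known as OSCP, had 227 to 269 CPM in muscle (median 258) and 11.2 to 19.4 in mitochondria (median 16.2), a change of -6.13 ± 0.13 (edgeR adjusted p = 1.78e-26). Atp5pb had 230.3 to 277 CPM (median 252) and 8.96 to 27.0 (median 16.5) and changed by -6.03 ± 0.15. No stalk gene overlapped between groups.

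Among the small membrane subunits, the main row of Atp5mk, also known as DAPIT, had 221 to 328 CPM in muscle (median 267). It had 2.78 to 10.1 in mitochondria (median 6.56). Its log2 fold change was -7.41 under TMM and -5.35 with total counts. Atp5mf, the f subunit, went from 152 to 251 CPM (median 210) to 8.40 to 19.4 (median 13.4). Under TMM, Atp5mf, Atp5me and Atp5mg changed by -6.07, -5.58 and -4.15. The copy of Atp5mk, ENSRNOG00000042869, had 0.413 to 1.26 CPM in muscle (median 0.796) and 0.674 to 2.78 in mitochondria (median 1.86), 13 counts in all. Its groups overlapped, and its change of -1.01 (edgeR adjusted p = 0.0209) was -0.95 with the animal as a block (edgeR adjusted p = 0.0713) and 1.04 with total counts (edgeR adjusted p = 0.0490), so that its direction depends on the scaling. Without mitochondria replicate 2 it was -0.81 (edgeR adjusted p = 0.0732). Atp5if1, the inhibitor that blocks ATP hydrolysis by the enzyme, fell from 22.5 to 34.8 CPM (median 31.3) to 1.68 to 8.33 (median 6.72), by -4.43 ± 0.18 (edgeR adjusted p = 4.67e-20).

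Summed over each enzyme, complex III had 1891 ± 112 CPM in muscle and 122 ± 26.9 in mitochondria, complex IV 2005 ± 136 and 163 ± 36.0, and ATP synthase 5718 ± 174 and 245 ± 53.2 (SD of 6 libraries). The mean was thus 15.4-fold lower in mitochondria for complex III, 12.3-fold for complex IV and 23.3-fold for ATP synthase. When only nuclear counts were taken as the total, the spread of the sums narrowed in mitochondria and widened in muscle. The coefficient of variation of the ATP synthase sum went from 21.7% to 6.33% in mitochondria and from 3.05% to 7.05% in muscle. For complex III it went from 21.9% to 8.83% in mitochondria and from 5.93% to 10.5% in muscle. For complex IV it went from 22.1% to 11.4% in mitochondria and from 6.78% to 9.74% in muscle. In CPM of nuclear counts, ATP synthase had 347 to 406 in mitochondria (median 357) and 7555 to 8950 in muscle (median 8736). Complex III had 157 to 201 (median 184) and 2359 to 3181 (median 2818), and complex IV 210.3 to 271 (median 258) and 2454 to 3268 (median 3028). The mitochondria ranges came from libraries whose mitochondrial genome share ran from 12.9% to 51.5%.

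The same enzymes also take subunits from the mitochondrial genome, whose mRNAs had smaller changes than those of their nuclear partners. All 6 such genes fell under TMM, with a median log2 fold change of -2.10, and 1 fell and none rose with total counts, with a median of -0.12. Counts of Mt-co1, Mt-co2 and Mt-co3 per nuclear complex IV count were 16.1 to 22.3 in muscle (median 19.1) and 59.6 to 359 in mitochondria (median 221). For Mt-cyb in complex III the ratio was 2.91 to 3.49 (median 3.06) and 23.9 to 108 (median 66.4), and for Mt-atp6 and Mt-atp8 in ATP synthase 0.920 to 1.51 (median 1.12) and 7.07 to 44.3 (median 21.3). In each enzyme the lowest mitochondria ratio, from replicate 3, was above the highest muscle ratio. The mean ratio was 22.1 times higher in mitochondria for complex III, 11.6 times for complex IV and 19.6 times for ATP synthase, and replicate 3 is also the library with the lowest mitochondrial genome share.

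**Figure D4:**
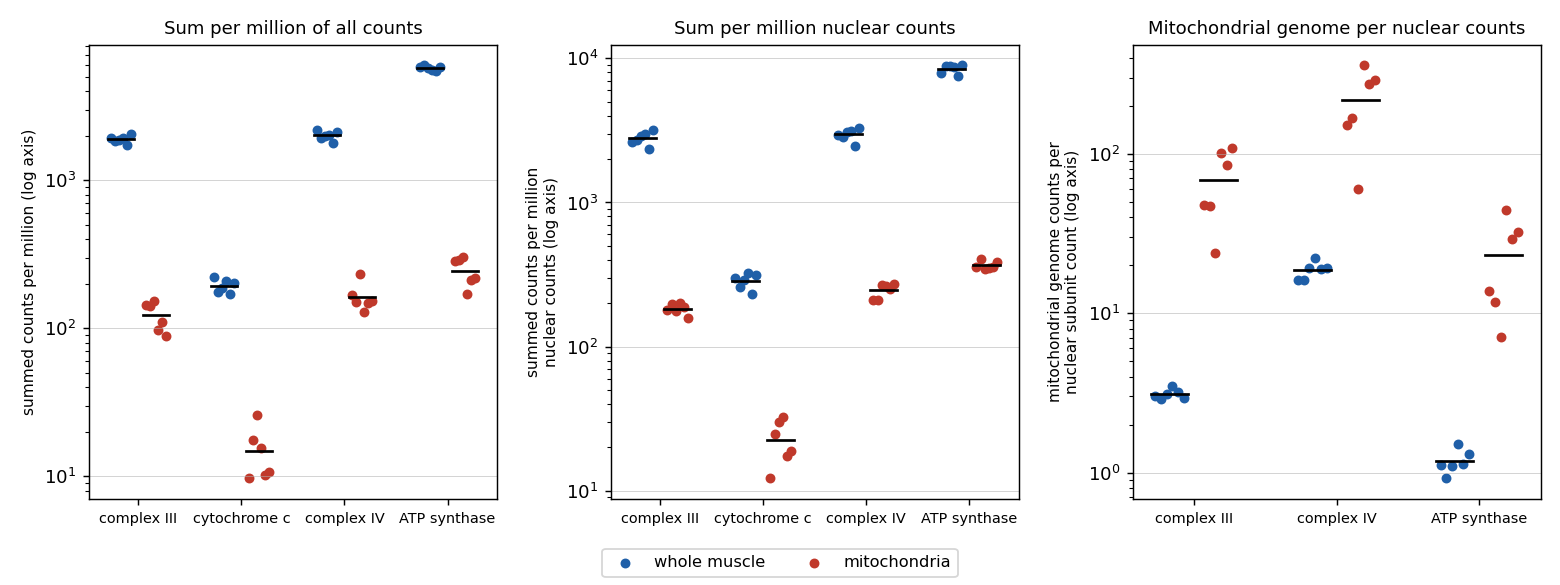
Summed counts of the nuclear genes of each enzyme as CPM of all counts (left) and CPM of nuclear counts (middle), and mitochondrial genome counts per nuclear count of the same enzyme (right), on log axes, with 1 point per library and the group mean as a black line. The nuclear sums are lower and the ratios higher in all 6 mitochondria libraries than in all 6 muscle libraries.

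How evenly the genes were measured differed between the groups. A mitochondria library held 0 to 56 counts of a gene and a muscle library up to 60742. The variance of the counts between the 6 mitochondria libraries, given their nuclear totals, was a median of 1.26 times the Poisson value over the 40 genes (0.206 to 4.47). In muscle it was a median of 88.2 times the Poisson value over the 36 genes with counts (3.08 to 692). This ratio grows with the size of the counts, so it does not rank the groups by relative spread. For the 33 genes of at least 10 CPM in muscle, the median coefficient of variation of CPM was higher in mitochondria. It was 36.9% there (19.98% to 77.9%) and 10.7% in muscle (1.34% to 23.3%).

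In muscle, several small subunits varied most between the animals. The SD of the log2 CPM of nuclear counts ran from 0.08 for Atp5f1d and 0.09 for Atp5f1b to 0.35 for Atp5mf, Cox6a1 and Cox6a2 and 0.41 for Uqcrb. Replicate 5 had the lowest value for 25 of the 33 genes of at least 10 CPM, and replicate 6 the highest for 13, replicate 4 for 9 and replicate 2 for 6. Cox6a1 and Cox6a2 were lowest in replicate 2, at -0.57 and -0.54 from their means, while the Cox6a2 share of the pair lay between 83.4% and 86.8% in all 6 muscle libraries. By CPM of all counts, replicate 5 was lowest for 16 genes and replicate 1 highest for 15, so the order of the animals differed with the denominator. The mitochondrial genome share was 27.2% in replicate 5 and 26.4% in replicate 1, the lowest of the muscle libraries, and its part in this order was not tested.

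**Figure D5:**
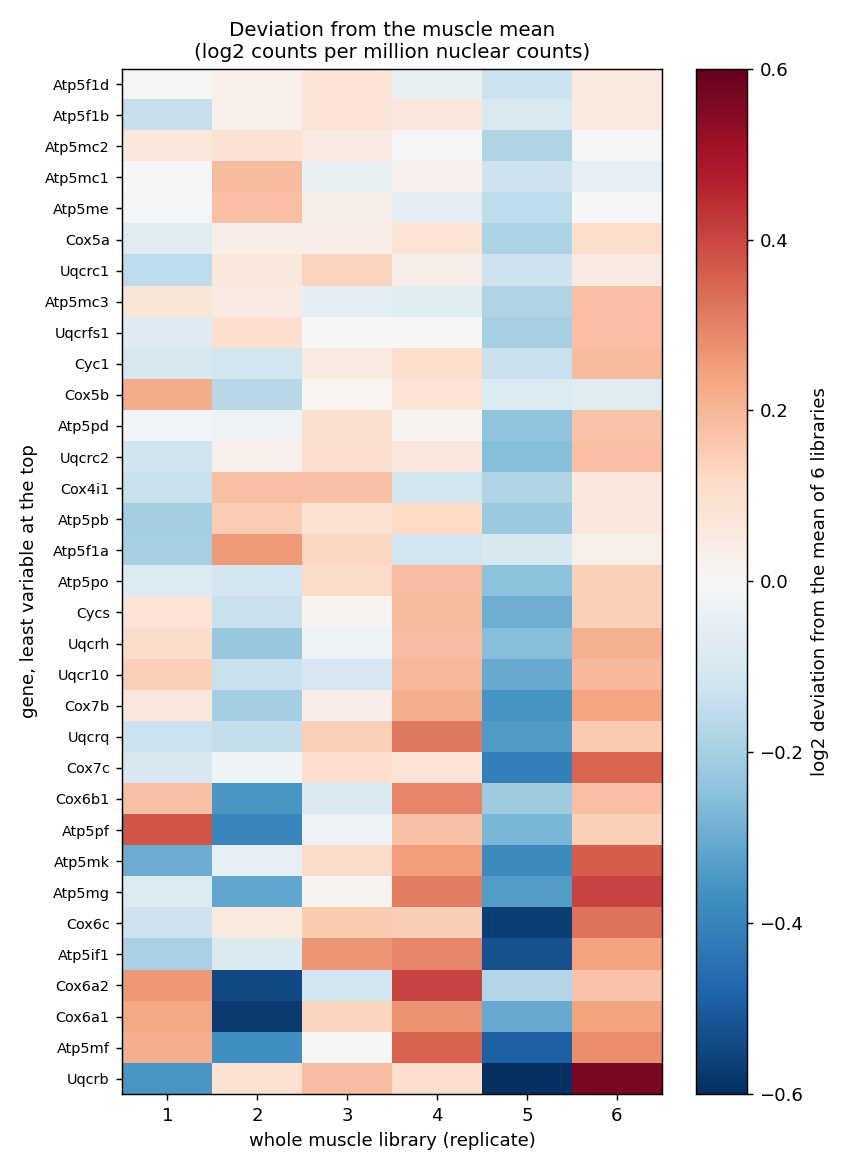
Deviation of each gene from its mean over the 6 whole muscle libraries (log2 CPM of nuclear counts; red higher, blue lower), for the 33 genes of at least 10 CPM in muscle, ordered by their spread. Replicate 5 is blue in most rows, and the spread grows from 0.08 for Atp5f1d at the top to 0.41 for Uqcrb at the bottom.

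The genes of these enzymes are known targets of the nuclear respiratory factors NRF1 and GABPA and of YY1. RefSeq promoter sequences (GRCr8, from 250 bases before to 50 after the annotated start) were matched by symbol for 31 of the 37 names and searched on both strands. The NRF1 core (GCGCA, then any base, then GCGC) was in 5 of 31 (16.1%) and in 4.25% of all 33469 promoters, the ETS core CCGGAAG, bound by GABPA, in 10 (32.3%) and 8.75%, and the YY1 core AAGATGG in 8 (25.8%) and 7.01%. At least 1 of the 3 was in 17 of 31 (54.8%), against 18.0% of all promoters and 21.1% of the 21851 protein-coding ones. The ETS and YY1 cores can share bases, since the first ends as the second begins. A match describes the letters and is not a binding site.

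The promoters below, from 120 bases before to 30 after the start, show 4 genes that fell (Atp5f1b, Atp5me, Cox4i1, Uqcrc2) and 4 isoform genes, of which Cox6a2 also fell, Cox7a1 rose and Cox7b2 and Cox8c had no muscle count. Capitals mark matches to the cores. The 8 were picked with their values known, and 14 of the 31 promoters hold no core, so nothing is read from which windows have one. Coordinates are of GRCr8, while the counts were made on another build: Atp5f1b at chr7:1099938-1100087, Atp5me at chr14:1464740-1464889, Cox4i1 at chr19:65630263-65630412, Uqcrc2 at chr1:184599120-184599269, Cox7a1 at chr1:94569096-94569245, Cox7b2 at chr14:37046961-37047110 and Cox8c at chr6:127793259-127793408, all on the plus strand, and Cox6a2 at chr1:192219687-192219836 on the minus strand.
Atp5f1b: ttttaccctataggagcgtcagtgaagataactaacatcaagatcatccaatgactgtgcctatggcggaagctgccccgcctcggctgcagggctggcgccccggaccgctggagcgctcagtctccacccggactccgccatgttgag
Atp5me: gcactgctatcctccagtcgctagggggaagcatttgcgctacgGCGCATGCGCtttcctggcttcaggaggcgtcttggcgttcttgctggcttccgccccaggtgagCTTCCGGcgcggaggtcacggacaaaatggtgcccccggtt
Cox4i1: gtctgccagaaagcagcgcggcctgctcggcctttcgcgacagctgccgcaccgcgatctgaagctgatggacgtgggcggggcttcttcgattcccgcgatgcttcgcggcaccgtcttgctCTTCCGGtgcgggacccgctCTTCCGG
Uqcrc2: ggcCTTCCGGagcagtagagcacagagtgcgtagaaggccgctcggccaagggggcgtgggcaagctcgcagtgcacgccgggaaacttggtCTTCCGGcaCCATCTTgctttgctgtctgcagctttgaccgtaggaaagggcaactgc
Cox6a2: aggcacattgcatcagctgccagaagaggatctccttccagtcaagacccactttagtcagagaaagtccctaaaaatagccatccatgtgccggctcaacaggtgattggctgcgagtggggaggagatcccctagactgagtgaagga
Cox7a1: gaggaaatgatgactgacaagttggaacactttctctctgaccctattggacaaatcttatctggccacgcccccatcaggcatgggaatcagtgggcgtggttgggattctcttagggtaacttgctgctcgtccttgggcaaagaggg
Cox7b2: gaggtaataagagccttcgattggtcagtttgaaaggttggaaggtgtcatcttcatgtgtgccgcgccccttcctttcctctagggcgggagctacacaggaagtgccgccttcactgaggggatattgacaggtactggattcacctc
Cox8c: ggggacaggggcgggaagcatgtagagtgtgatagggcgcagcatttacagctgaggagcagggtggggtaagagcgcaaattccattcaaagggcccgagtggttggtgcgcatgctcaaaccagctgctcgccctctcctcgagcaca

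Assembly factors of these enzymes, from lists taken by function, had medians nearer to 0 than the subunit genes. This comparison is not matched for muscle level. Among all genes tested, 30.3% fell and 63.0% rose under TMM, and 9.03% fell and 84.3% rose with total counts. The 5837 other nuclear genes of 10 to 100 CPM in muscle had a median log2 fold change of -1.69. All 6 assembly factors of complex III that were tested fell (median log2 fold change -2.23, and -0.13 with total counts, where 2 fell and 2 rose). Of 18 assembly factors of complex IV 14 fell and 3 rose (median -1.24), while total counts gave 2 falls and 12 rises (median 0.85). Of 6 for ATP synthase 5 fell and 1 rose (median -1.77), and total counts gave 3 in each direction (median 0.31). Among these, Uqcc1, which helps to build complex III, had 44.6 ± 2.28 CPM in muscle and 28.8 ± 5.98 in mitochondria, Cox10, a haem synthesis enzyme, 40.1 ± 2.64 and 32.8 ± 9.66, and Atpaf1, an F1 chaperone, 44.9 ± 4.28 and 30.1 ± 5.26 (SD of 6 libraries). Their log2 fold changes were -2.68, -2.44 and -2.63.

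Most nuclear subunits of the other respiratory complexes fell too, where 30.3% of all genes tested fell under TMM and 9.03% with total counts. Of 36 complex I rows 33 fell and 3 rose (median -4.77; with total counts 32 and 3, median -2.69), and all 4 complex II genes fell (median -5.81, and -3.74 with total counts). Ndufs1, a complex I core subunit, went from 410 ± 42.3 CPM to 25.4 ± 4.55 and Sdha, the flavoprotein of complex II, from 616 ± 51.3 to 36.3 ± 10.0 (SD of 6 libraries). Ndufa4, a small protein counted with complex IV or complex I in different sources and not among the genes above, went from 294 ± 36.9 to 18.1 ± 6.12 CPM, a log2 fold change of -6.15 ± 0.15 (edgeR adjusted p = 2.71e-25).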

How the data were processed

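RNA-seq counts per gene were compared between 6 whole muscle and 6 mitochondria libraries, grouped by the labels. The deposited counts are whole numbers per Ensembl gene, raw judging by their unequal library totals; tools listed in the submitters' processing notes are STAR 2.7.11a, HTSeq, cutadapt 4.6 and FastQC 0.74, with the build mRatBN7.2. The members and gene lists were chosen with earlier results of these data known. CPM was computed from all counts of a library. The main test was edgeR 4.0.16 (R 4.3.3) with TMM scaling, filterByExpr (minimum count 10) and no term other than group. It used quasi-likelihood tests and Benjamini-Hochberg adjustment over all genes at 0.05. The test was also run on simulated counts with few changed genes and nearly the same composition in both groups. That simulation cannot decide how TMM behaves where most genes change, as in these data. Alternatives were other library sizes, RLE, DESeq2 1.42.0, no filter, a fold of at least 2, thinning, nuclear genes only, a replicate block and leaving out each library. Values per library are given for the 2 most abundant members of each role, isoforms, members that rose and repeated names; of other lists, the most abundant and the most changed genes could be named. The replicate numbers mark shared animals, per the labels. Correlations of same-numbered libraries' deviations from their group means were -0.00824 to 0.0156 over the genes tested and -0.372 to 0.161 over the members. Depth was 24309444 to 32055355 counts in muscle and 720111 to 1785865 in mitochondria, so mitochondria values of single genes rest on 0 to 56 counts per library. Intervals are exact 95% Poisson intervals; floors are 3 counts over the group.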

Additional observations from a re-analysis of the deposited data

Results flagged for a closer look

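In 3 of 108 groups of 6 libraries, 1 library stood apart from the rest by Dixon's criterion, which chance meets in about 1 in 20 groups. Cox5b had 403.8 CPM in muscle replicate 1, and the next highest muscle library had 323.7. Cox6a2 had 12.5 CPM in mitochondria replicate 1, next to 6.74 in the nearest library, from counts of 9 and 10. Atp5pd had 7.84 CPM in mitochondria replicate 4, below 13.5 in the nearest library, and replicate 4 also had the highest mitochondrial genome share, 51.5%; its part in this value was not tested.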

How the results depend on the processing

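Of 797 log2 fold changes of the 39 tested genes under the alternatives, 783 kept their direction and side of the threshold, 7 of 3 genes no longer passed, 5 of Cox4i2 newly passed and 2 reversed. The reversals were the copy of Atp5mk with total counts (1.04) and with mitochondrial genome counts as library size (1.09), and the cause was not tested. With thinned nuclear counts and so fewer genes tested, 2 subunit genes rose, Cox4i2 and Cox7a1, and over all genes 4165 fell and 8751 rose. Cox4i2 and Cox7a1 passed the count filter there only through the mitochondria libraries, so these calls restate that selection. All genes that fell numbered 2228 with total counts and 1071 with mitochondrial genome counts as library size, against 7470 under TMM. Leaving out single libraries gave 33 to 34 subunit genes that fell and 2 to 5 that rose, and 6925 to 7514 falls and 11478 to 16363 rises over all genes. The 2 were Cox7a1 and the copy of Atp5mc1, in each fit without a muscle library, where Cox7b2 and Cox8c were not tested. In those fits Cox7a1 and the copy of Atp5mc1 passed the count filter only through the mitochondria libraries, so their calls restate that selection.

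With the animal as a replicate block, 33 subunit genes fell and 4 rose, and the call lost was that of the copy of Atp5mk (-0.95, edgeR adjusted p = 0.0713). With the most counted row of each name alone, the mitochondria shares of Atp5mc1 and Atp5mc3 were 42.5% and 35.3%. As CPM of nuclear counts, the mean sums in muscle and mitochondria were 8453 and 366.7 for ATP synthase, 2800.2 and 183.4 for complex III, 2966 and 245.8 for complex IV and 287.0 and 22.5 for cytochrome c. Low counts in mitochondria limit single genes there.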

Other observations

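Of 9 regulators of respiratory chain genes tested, 8 fell and 1 rose under TMM (median -2.04), and 3 fell and 3 rose with total counts (median 0.07). The shares over all genes tested were 30.3% and 63.0% under TMM, and 9.03% and 84.3% with total counts. Nrf1, which encodes nuclear respiratory factor 1, had mean levels of 12.2 ± 0.811 CPM in muscle and 65.8 ± 13.8 CPM in mitochondria (SD of 6 libraries), a log2 fold change of 0.29 (edgeR adjusted p = 0.0114). Yy1, a zinc finger factor, had 24.4 ± 2.16 and 11.1 ± 3.43 CPM (SD of 6 libraries), a change of -3.30 (edgeR adjusted p = 9.38e-20).

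Cyct, the testis form of cytochrome c, went from 0.0535 ± 0.0503 CPM in muscle to 59.2 ± 14.9 in mitochondria (SD of 6 libraries). Sco2, a copper chaperone for complex IV, had 0.118 ± 0.0781 and 8.56 ± 3.74 CPM (SD of 6 libraries). Both had too few muscle counts to enter the test other than through the mitochondria libraries, so no p is given. The 12668 other nuclear genes below 1 CPM in muscle had a median log2 fold change of 7.06 and a median mitochondria level of 11.9 CPM.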
